A study of Mus musculus with 8 samples.

Results

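A set of 37 interferon-stimulated genes was followed through 8 mouse lung tumors. The set was a list of gene symbols spanning the main products that interferon induces, and each symbol was matched by its Ensembl identifier to the deposited table of raw counts, in which all 37 were found among 48709 genes. The rule used symbols alone and no measured value. The labels describe lung adenocarcinoma and place 4 tumors in K-Ctrl and the other 4 in K-Setd2KO. The study itself calls the K-Setd2KO tumors low grade adenomas and reports choosing specimens of matched stage by histology. All 8 came from mice of the K model on a mixed B6J/129S4vJae background, in which Cre recombinase starts the tumors. According to the study's methods, tumors were started by delivering a lentiviral vector into the airways that encodes Cre, Cas9 and a guide RNA, so that both groups received Cre and Cas9. The guide was directed against *GFP* in K-Ctrl tumors and against *Setd2*, which encodes a histone H3 methyltransferase, in K-Setd2KO tumors. No drug treatment is given in the labels, and neither the age of each animal nor the animal behind each tumor is given there, so p-values measure the spread between these tumors. Only cells that took up the vector can carry the edits, and each library also holds RNA of the leukocytes, vessels and fibroblasts of its tumor. The labels speak of frozen tumors in the design and of cell lines in the extraction, a difference that was not resolved.

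Interferons are cytokines released on infection or by activated lymphocytes. Type I and type III interferons signal through JAK kinases to a complex of STAT and IRF9 proteins that binds an interferon-stimulated response element (ISRE), while interferon-gamma, the type II interferon, signals to a STAT dimer that binds a gamma-activated site (GAS). The products that follow include sensors of foreign RNA, proteins that block viral translation or entry, GTPases that attack vacuoles holding microbes, and chemokines that draw T cells. In tumors these genes can be expressed by malignant, immune and stromal cells alike.

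The targeted gene was checked first. *Setd2* averaged 140 CPM (counts over the library total after TMM scaling) in the K-Ctrl tumors against 135 CPM in the K-Setd2KO tumors, with overlapping groups and a log2 fold change of -0.05 (SE 0.115, edgeR adjusted p = 0.824), so mRNA level could not check the genotype labels. Library totals ran from 5806599 to 21290402 counts. By sex-specific transcripts, 3 K-Ctrl tumors and 1 K-Setd2KO tumor were male, a difference in sex between the groups that the labels do not record. Genes of chromosome 6 (839 tested) stood above the other genes of the same tumor by a median of 0.35, 0.32 and 0.39 on the log2 scale in K-Setd2KO replicates 1, 3 and 4, against -0.03 in replicate 2 and -0.04 to 0.02 in K-Ctrl. Many leukocyte markers differed between the groups and are described beside the genes they moved with.

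Of the 37 genes, 36 passed the filter on low counts and *Oasl1*, at 0.307 to 1.01 CPM, did not. By edgeR's quasi-likelihood test with Benjamini-Hochberg adjustment over all 14929 genes tested, 3 of the 36 were called at an adjusted p under 0.05. All 3, *Ifit2*, *Ifit3* and *Gbp7*, fell in K-Setd2KO, and none rose. Over the whole table, 12.7% of all tested genes were called. The 3 were 8.33% of the 36, and the background share of all tested genes called lower was 7.74% (1155 genes), with 4.97% called higher. In this fit the share of calls among interferon-stimulated genes was therefore close to the background. In other fits the members' share was above the background, close to it or below it. Without K-Setd2KO replicate 2, 2 of the 36 (5.56%) were called lower against 7.97% of all genes. Without K-Setd2KO replicate 4, 2 of 37 (5.41%) were called lower against 5.67%. With a sex term, 4 of the 36 (11.1%) were called lower against 5.25% of all genes, and DESeq2 called 6 of 37 (16.2%) lower against 10.6%. Without K-Setd2KO replicate 1, 6 of the 36 (16.7%) were called lower against 6.03% of all genes. That tumor was the highest of its group in 30 of the 36, so leaving it out lowers the K-Setd2KO mean of those genes by construction. With K-Ctrl replicate 2 also left out, a choice made after the values were seen, 4 of the 36 (11.1%) were called lower against 2.66%. The same 3 genes were the only ones of the 36 whose groups did not overlap, all with K-Setd2KO below K-Ctrl, whereas 11.2% of all genes did not overlap in that direction and 9.09% in the other. With no adjustment, 8 of the 36 had a p under 0.05, against 29.9% of all genes. The sign was less evenly divided, since 28 of the 36 (77.8%) had a negative log2 fold change and 8 a positive one, while 47.3% of all genes tested were negative. The median log2 fold change was -0.33 over the 36 and 0.03 over all genes, and 20 of the 36 lay within 0.5 of 0. The member median was -0.66 without K-Setd2KO replicate 1, -0.20 without K-Setd2KO replicate 3 and -0.58 with a sex term. These genes share inducers and tumors, so their signs are not independent of each other.

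**Figure D1:**
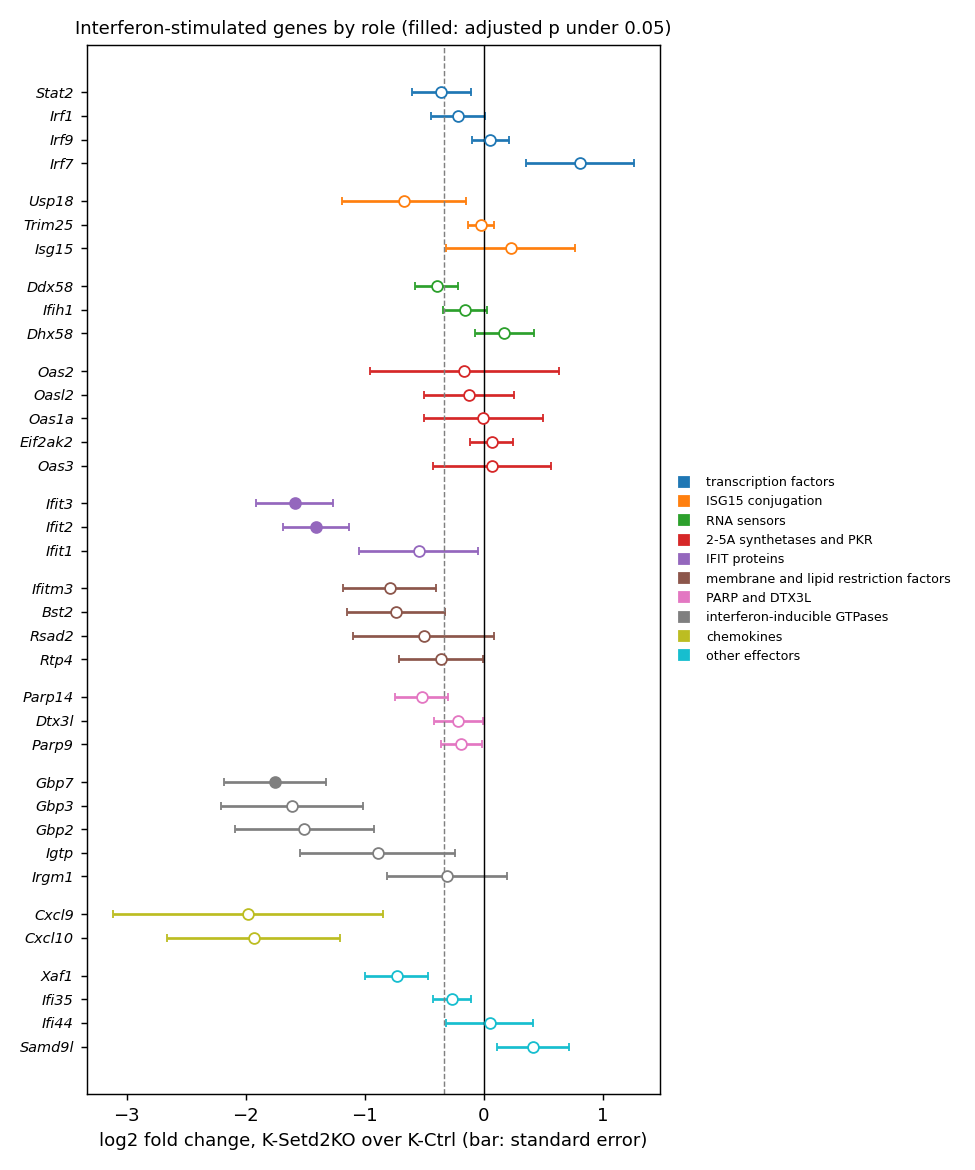
Log2 fold change of each of the 36 tested genes (K-Setd2KO over K-Ctrl, x axis) grouped and colored by role, with standard errors as bars. Filled symbols mark *Ifit3*, *Ifit2* and *Gbp7*, whose adjusted p was under 0.05. The dashed line is the median of -0.33.

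The IFIT family held 2 of the 3 calls. IFIT proteins are interferon-induced, bind viral RNA or its translation machinery and restrain viral protein synthesis. *Ifit2* (ENSMUSG00000045932) stood at 24.6, 19.3, 18.9 and 19.3 CPM in K-Ctrl replicates 1 to 4 and at 8.15, 4.81, 11.9 and 5.98 CPM in K-Setd2KO replicates 1 to 4. Every K-Setd2KO tumor was below every K-Ctrl tumor. Group means were 20.5 ± 2.71 and 7.70 ± 3.11 CPM (SD, n = 4 each), a 2.66-fold lower level (log2 fold change -1.41, SE 0.277, edgeR adjusted p = 0.0149). *Ifit3* (ENSMUSG00000074896) measured 45.0, 23.7, 27.1 and 21 CPM in K-Ctrl and 14.8, 7.41, 9.85 and 6.49 CPM in K-Setd2KO. The groups did not overlap here either, although K-Ctrl replicate 1 was well above its group. The level of *Ifit3* was 3.01-fold lower (log2 fold change -1.59, SE 0.323, edgeR adjusted p = 0.0166).

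*Ifit2* and *Ifit3* lie next to each other on chromosome 19 (GRCm38, 34550694 to 34576419 and 34583531 to 34588731, plus strand), with 7112 bases between them. *Ifit3b*, a nearly identical copy of *Ifit3*, also fell (log2 fold change -1.80, SE 0.357, edgeR adjusted p = 0.0153), and reads could have been split between these copies. *Ifit1*, which recognizes viral RNA caps and lies in the same cluster at 34640871 to 34650009, measured 12, 9.55, 7.23 and 6.41 CPM in K-Ctrl and 8.56, 1.22, 7.37 and 7.0 CPM in K-Setd2KO. Only K-Setd2KO replicate 2 was below the K-Ctrl range, and the gene was not called (log2 fold change -0.55, SE 0.50, edgeR adjusted p = 0.50). The difference between *Ifit1* and its neighbors was not tested. *Ifit2* and *Ifit3* were called whichever tumor was left out, with log2 fold changes from -1.69 to -1.24 and from -1.88 to -1.30. A term for sex ended the call of *Ifit3* (adjusted p = 0.0568), and leaving out both K-Ctrl replicate 2 and K-Setd2KO replicate 1, a choice made after the values were seen, ended that of *Ifit2* (adjusted p = 0.0662).

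**Figure D2:**
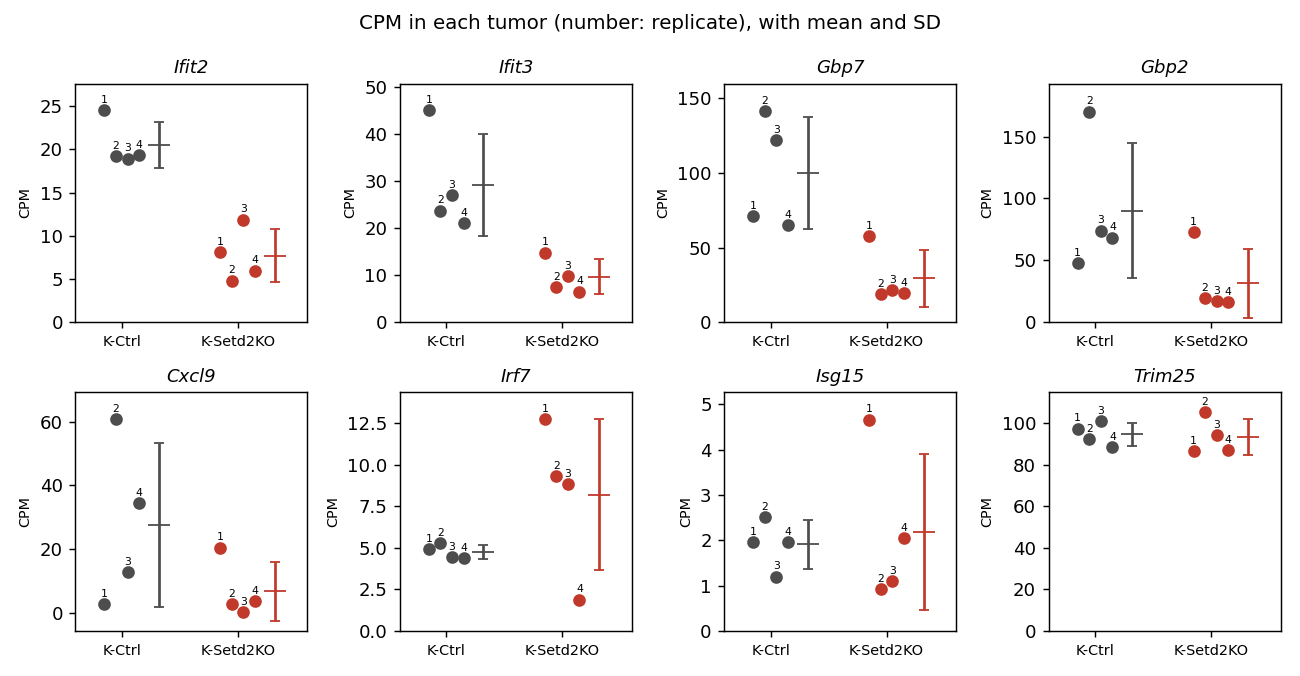
CPM of 8 genes in each tumor (y axis, linear) by group (x axis), with the replicate number at each point and the group mean with SD beside the points (n = 4 each). *Ifit2*, *Ifit3* and *Gbp7* do not overlap between groups, *Gbp2* overlaps through K-Setd2KO replicate 1, *Cxcl9* overlaps through replicates 1 and 4 of K-Setd2KO, and *Trim25* lies between 86.3 and 105 CPM in all tumors.

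The interferon-inducible GTPases gave the third call. Guanylate-binding proteins (GBPs) and immunity-related GTPases (IRGs) are induced strongly by interferon-gamma and disrupt the vacuoles of intracellular pathogens. *Gbp7* (ENSMUSG00000040253) measured 71.3, 141, 122 and 64.8 CPM in K-Ctrl replicates 1 to 4 and 57.9, 18.9, 21.4 and 19.5 CPM in K-Setd2KO replicates 1 to 4. The groups did not overlap, but K-Setd2KO replicate 1 came close to the lowest K-Ctrl tumor. The mean fell from 99.9 ± 37.7 to 29.4 ± 19.0 CPM (SD, n = 4 each), 3.37-fold lower (log2 fold change -1.75, SE 0.427, edgeR adjusted p = 0.0314). *Gbp7* was called in 3 of the 8 fits that left out a tumor, with adjusted p from 0.0155 to 0.0830, the loss following K-Ctrl replicates 2 and 3 and K-Setd2KO replicates 2, 3 and 4.

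*Gbp3* and *Gbp2* follow *Gbp7* on chromosome 3 (142530342 to 142638008 for the stretch from *Gbp7* to *Gbp2*). *Gbp2* measured 47.4, 170, 74.0 and 68.4 CPM in K-Ctrl and 72.8, 19.5, 16.8 and 16.4 CPM in K-Setd2KO. *Gbp3* measured 21, 68.7, 44.1 and 34.4 CPM and then 33.0, 7.33, 6.08 and 7.69 CPM. In both genes K-Setd2KO replicate 1 lay inside the K-Ctrl range and the other 3 K-Setd2KO tumors lay below it. Neither was called (log2 fold changes -1.51, SE 0.582, and -1.61, SE 0.595, edgeR adjusted p = 0.122 and 0.108). Without K-Setd2KO replicate 1 both were called, at -2.35 and -2.58 (edgeR adjusted p = 0.0218 and 0.0178), in a fit that called 6.03% of all genes lower.

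The IRG genes overlapped more widely. *Igtp* measured 13.1, 86.2, 42.2 and 55.0 CPM in K-Ctrl and 58.8, 22.4, 9.30 and 14.3 CPM in K-Setd2KO (log2 fold change -0.89, SE 0.651, edgeR adjusted p = 0.397). *Irgm1*, which regulates the other GTPases of its family, measured 21.9, 93.7, 53.4 and 43.9 CPM and then 84.2, 23.7, 27.3 and 36.0 CPM, for a log2 fold change of -0.31 (SE 0.502, edgeR adjusted p = 0.719). K-Ctrl replicate 2 was highest and K-Ctrl replicate 1 lowest of the controls in both genes. Without K-Ctrl replicate 2 the log2 fold change of *Irgm1* became 0.11 and that of *Igtp* -0.47, and *Igtp* was at -1.67 without K-Setd2KO replicate 1. *Igtp* overlaps its relative *Irgm2* on the same strand, and *Gbp7*, *Irf9*, *Parp14* and *Rtp4* also overlap an annotated gene of their strand, so these counts depend on how shared reads were assigned.

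The chemokines *Cxcl9* and *Cxcl10* attract T cells through the receptor CXCR3. *Cxcl9* measured 2.76, 60.8, 12.7 and 34.3 CPM in K-Ctrl and 20.5, 2.75, 0.184 and 3.59 CPM in K-Setd2KO. *Cxcl10* measured 1.29, 13.2, 4.10 and 6.15 CPM and then 2.87, 1.83, 0.460 and 1.02 CPM. Their log2 fold changes were the most negative of the 36, at -1.98 (SE 1.14) and -1.93 (SE 0.728), yet the groups overlapped and neither was called (edgeR adjusted p = 0.277 and 0.112). The sizes depended on single tumors. Without K-Ctrl replicate 2 they were -1.25 and -1.26, and without K-Setd2KO replicate 1 they were -3.72 and -2.44. K-Ctrl replicate 1 sat with the K-Setd2KO tumors in both genes. The K-Setd2KO replicate 3 value of *Cxcl9* rested on 2 counts and that of *Cxcl10* on 5.

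None of the 4 transcription factors of the response was called. *Irf1*, which carries interferon-gamma signals to promoters, was the most abundant of these and measured 58.1, 108, 82.9 and 72.3 CPM in K-Ctrl and 95.8, 63.7, 57.1 and 59.8 CPM in K-Setd2KO (log2 fold change -0.22, SE 0.225, edgeR adjusted p = 0.561). *Stat2* and *Irf9*, partners in the complex that binds the ISRE, had log2 fold changes of -0.36 (SE 0.249) and 0.05 (SE 0.155). *Stat2* in K-Ctrl spanned 51.6 to 62.8 CPM, with K-Setd2KO at 67.7, 30.2, 31.0 and 46.8 CPM, so that 3 K-Setd2KO tumors were below K-Ctrl and replicate 1 above it. *Irf7*, which amplifies type I interferon production, went the other way in 3 tumors. It measured 4.90, 5.28, 4.42 and 4.36 CPM in K-Ctrl and 12.7, 9.32, 8.84 and 1.88 CPM in K-Setd2KO. Replicates 1 to 3 of K-Setd2KO were above all K-Ctrl tumors and replicate 4 was below them (log2 fold change 0.80, SE 0.452, edgeR adjusted p = 0.267). Replicate 4 was the shallowest library, and without it *Irf7* was called higher (log2 fold change 1.11, edgeR adjusted p = 0.0283, in a fit that called 3.35% of all genes higher).

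Genes of the ISG15 pathway, in which a ubiquitin-like protein is attached to targets, were spread around 0. *Trim25*, a ubiquitin ligase that also aids RNA sensing, had the smallest SE of the 36, with 97.4, 92.2, 101 and 88.4 CPM in K-Ctrl and 86.3, 105, 94.2 and 87.1 CPM in K-Setd2KO (log2 fold change -0.02, SE 0.108, edgeR adjusted p = 0.908). *Isg15* itself was low, at 1.2 to 2.51 CPM in K-Ctrl and at 4.67, 0.916, 1.10 and 2.05 CPM in K-Setd2KO, and rested on 12 to 91 counts a tumor (log2 fold change 0.22, SE 0.545). *Usp18*, the enzyme that removes ISG15 and dampens receptor signaling, ranged from 3.10 to 4.98 CPM in K-Ctrl and from 0.512 to 4.61 CPM in K-Setd2KO (log2 fold change -0.67, SE 0.520). *Usp18* and *Samd9l* are the members on chromosome 6, whose genes stood higher in 3 K-Setd2KO tumors, and the part of that shift in their values was not tested.

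The cytosolic RNA sensors and the antiviral enzymes showed no call. *Ddx58* (RIG-I), which detects viral RNA ends, measured 64.0, 94.8, 67.1 and 79.5 CPM in K-Ctrl and 73.9, 51.6, 47.3 and 58.9 CPM in K-Setd2KO, with 3 K-Setd2KO tumors below the K-Ctrl range (log2 fold change -0.40, SE 0.179, edgeR adjusted p = 0.173). *Ifih1* (MDA5) and *Dhx58* (LGP2), its relatives, had log2 fold changes of -0.16 (SE 0.182) and 0.17 (SE 0.245). *Eif2ak2* (PKR), a kinase that shuts off translation, measured 51.1, 78.2, 58.8 and 56.2 CPM in K-Ctrl and 75.0, 53.4, 52.9 and 74.5 CPM in K-Setd2KO (log2 fold change 0.06, SE 0.181, edgeR adjusted p = 0.842). The oligoadenylate synthetases, which make the messenger that activates RNase L, were scarce apart from *Oasl2* (6.72 to 25.8 CPM over all tumors). *Oas1a*, *Oas2*, *Oas3* and *Oasl2* had log2 fold changes between -0.16 and 0.07 with SE from 0.378 to 0.796. *Oas2* had 1 count each in K-Setd2KO replicates 3 and 4 while replicates 1 and 2 were above all K-Ctrl tumors, at 2.41 and 2.29 CPM.

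The 4 membrane and lipid restriction factors all had negative log2 fold changes, and none was called. *Ifitm3*, which blocks viral fusion, measured 63.2, 48.9, 55.5 and 36.6 CPM in K-Ctrl and 33.8, 46.7, 10.1 and 27.3 CPM in K-Setd2KO (log2 fold change -0.79, SE 0.390, edgeR adjusted p = 0.211). Only K-Setd2KO replicate 2 reached the K-Ctrl range. *Bst2* (tetherin), which holds budding virions at the cell surface, measured 14.5 to 26.5 CPM in K-Ctrl and 17.1, 14.1, 7.92 and 3.93 CPM in K-Setd2KO (log2 fold change -0.74, SE 0.408). *Rsad2* (viperin) and *Rtp4* had log2 fold changes of -0.50 (SE 0.594) and -0.36 (SE 0.353), and both overlapped between groups.

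*Parp14*, *Parp9* and *Dtx3l* encode ADP-ribosyltransferases and a ubiquitin ligase that partners with PARP9. *Parp14* measured 89.3, 152, 110 and 118 CPM in K-Ctrl and 118, 71.5, 66.9 and 71.0 CPM in K-Setd2KO, with K-Setd2KO replicate 1 inside the K-Ctrl range and the other 3 below it (log2 fold change -0.52, SE 0.222, edgeR adjusted p = 0.153). The gene was called without K-Setd2KO replicate 1 (log2 fold change -0.75, edgeR adjusted p = 0.0422). *Parp9* and *Dtx3l*, which overlap on opposite strands, had log2 fold changes of -0.19 (SE 0.171) and -0.21 (SE 0.205). Among the remaining effectors, *Xaf1*, which promotes apoptosis, spanned 15.7 to 33.9 CPM in K-Ctrl and 12 to 19.9 CPM in K-Setd2KO (log2 fold change -0.73, SE 0.264, edgeR adjusted p = 0.0998). This gene was called without K-Ctrl replicate 4 (log2 fold change -0.91, edgeR adjusted p = 0.0301), where 8.31% of the tested genes were called lower. *Samd9l*, which restrains poxviruses and cell growth, measured 105, 149, 123 and 94.5 CPM in K-Ctrl and 122, 94.7, 265 and 147 CPM in K-Setd2KO. Replicate 3 of K-Setd2KO was far above the other tumors (log2 fold change 0.42, SE 0.302, edgeR adjusted p = 0.392). *Ifi35* and *Ifi44* had log2 fold changes of -0.27 (SE 0.157) and 0.05 (SE 0.364).

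Levels between genes were compared as RPKM, which divides CPM by the gene's exon length in kilobases. *Ifitm3* was the most abundant member in K-Ctrl, at 75.3 ± 16.6 RPKM, followed by *Gbp2* (35.8 ± 21.7), *Igtp* (24.3 ± 15), *Samd9l* (21.7 ± 4.44) and *Irf1* (20.2 ± 5.29) (SD, n = 4 each). *Gbp2* and the genes that followed it lay within each other's spread. *Oas3*, *Oas2* and *Oasl1* were the lowest, at 0.438 ± 0.201, 0.329 ± 0.0978 and 0.231 ± 0.127 RPKM. In K-Setd2KO, *Ifitm3* remained first by mean at 43.5 ± 22.5 RPKM, *Samd9l* came next at 29.0 ± 13.8, and *Gbp2* stood at 12.5 ± 11 (SD, n = 4 each). The spreads of *Ifitm3* and *Samd9l* overlapped there. The groups of *Samd9l* overlapped, so its higher place there is a description of the means.

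The genes did not vary from tumor to tumor as most genes did, a pattern that was looked at after the values were seen. K-Setd2KO replicate 1 was the highest of its group in 30 of the 36 genes (83.3%), whereas it was highest for 20.1% of all genes tested. K-Ctrl replicate 2 was the highest control in 23 of the 36 (63.9%, against 27.4% of all genes), and K-Ctrl replicate 1 was the lowest in 18 (against 25.4% of all genes). In the 7 GTPase and chemokine genes, both K-Setd2KO replicate 1 and K-Ctrl replicate 2 were the highest of their group every time, and K-Ctrl replicate 1 was lowest in 6. Within K-Ctrl the highest tumor exceeded the lowest by a median of 4.28 times over these 7 genes, against 1.71 times over the other 29 and 1.49 times over all genes above 0 in every tumor. Within K-Setd2KO the same medians were 5.43, 2.47 and 1.72 times. The most negative fold changes, of *Cxcl9* and *Cxcl10*, thus came from genes that also spread widely inside each group, whereas *Ifit2* spread less in K-Ctrl (18.9 to 24.6 CPM).

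**Figure D3:**
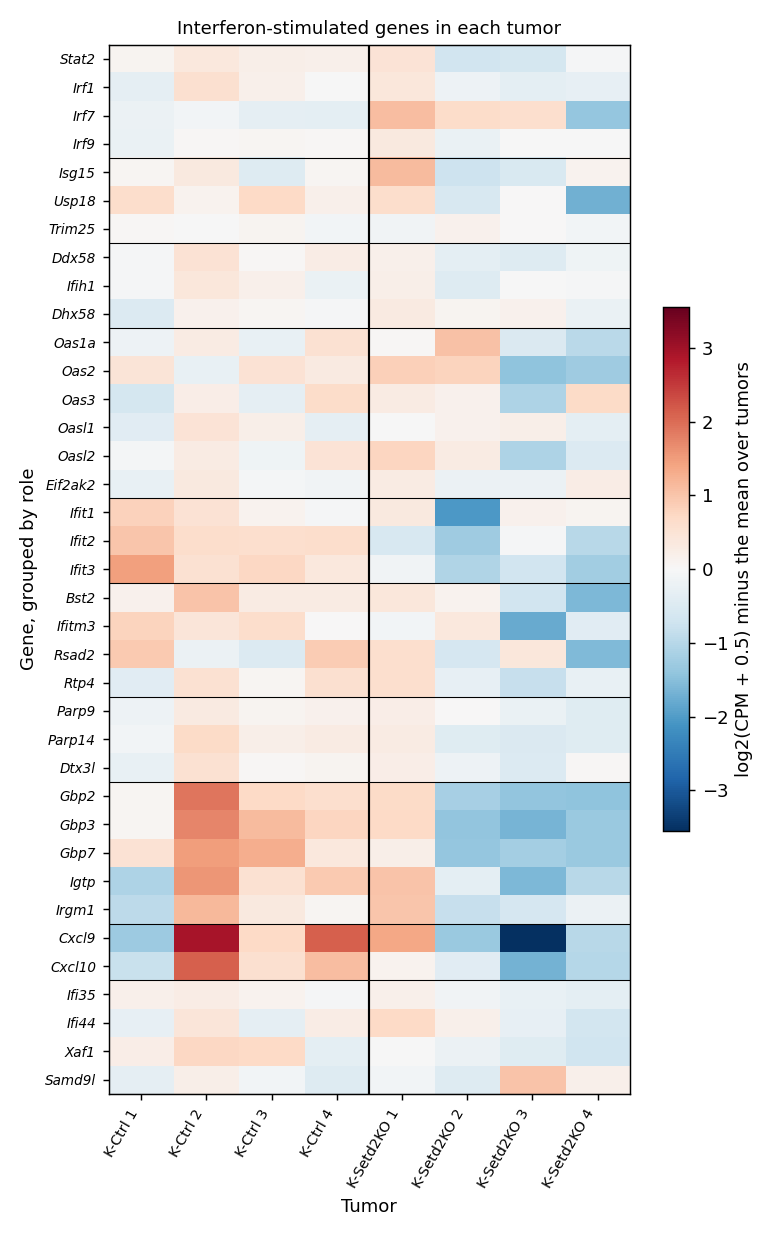
Level of each of the 37 genes (rows, grouped by role) in each tumor (columns), as log2(CPM + 0.5) minus the gene's mean over the 8 tumors, with red above and blue below that mean. K-Ctrl replicate 2 and K-Setd2KO replicate 1 are the reddest columns of their groups in the rows from *Gbp2* to *Irgm1* and in the chemokine rows.

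Leukocyte markers moved with several of these genes. Of 8 pan-leukocyte markers, 6 fell in K-Setd2KO, among them *Ptprc* (CD45, log2 fold change -2.08, edgeR adjusted p = 0.0056), and the summed level of the 8 ran from 1002 to 1825 CPM in K-Ctrl and from 538 to 764 CPM in K-Setd2KO. Of 10 macrophage and monocyte markers, 6 fell and *Ly6c2* rose, and the sum ran from 599 to 1768 CPM in K-Ctrl and from 254 to 385 CPM in K-Setd2KO. None of these 18 markers was at 0 in any tumor. Both sums were lower in every K-Setd2KO tumor than in any K-Ctrl tumor, as were *Ifit2*, *Ifit3* and *Gbp7*. The same held for the sums of T cell, B cell, dendritic cell and plasmacytoid dendritic cell markers given below. In bulk tumors, fewer cells of a type and less RNA per cell cannot be told apart, and the part of leukocytes in these 3 calls was not tested.

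T cell markers shared part of the order of tumors seen in the GTPases. The 8 markers all had negative log2 fold changes, with *Cd2* alone called. Their sum was 55.4, 137, 62.8 and 53.4 CPM in K-Ctrl replicates 1 to 4 and 42.7, 12.6, 8.19 and 14.9 CPM in K-Setd2KO replicates 1 to 4, and *Cd5* alone was at 0 in a tumor. The summed level of the 5 GTPase genes was 175, 560, 336 and 267 CPM in K-Ctrl and 307, 91.9, 80.8 and 93.9 CPM in K-Setd2KO. K-Ctrl replicate 2 and K-Setd2KO replicate 1 led their groups in both sums. The pan-leukocyte sum was led by K-Ctrl replicate 2 and K-Setd2KO replicate 4. Of its single markers, *Ptprc*, *Cd52*, *Coro1a*, *Cd53*, *Vav1* and *Ikzf1* were also highest in replicate 1 within K-Setd2KO. *Laptm5* was highest there in replicate 2 and *Lcp1* in replicate 4. K-Setd2KO replicate 1 was inside the K-Ctrl range for the GTPases and below it for the pan-leukocyte and macrophage sums. Its T cell sum was also below the K-Ctrl range, through *Cd2*, while the other 7 T cell markers were inside it. Natural killer markers were near the floor, and 7 of the 8 were at 0 in at least 1 tumor. *Klrk1*, an activating receptor and the only 1 of the 8 tested, fell from 1.41 to 3.52 CPM in K-Ctrl to 0.615 CPM in K-Setd2KO replicate 1 and 0.0764 to 0.342 CPM in the rest (log2 fold change -2.60, SE 0.629, edgeR adjusted p = 0.0293). The sum of the 8 was 4.17 to 9.72 CPM in K-Ctrl, 7.79 CPM in K-Setd2KO replicate 1 and 0.460 to 1.2 CPM in the other K-Setd2KO tumors. K-Setd2KO replicate 1 was below the K-Ctrl range in 2 of the 8, inside it in 3 and above it in 3, which were *Gzmb*, *Prf1* and *Eomes*. The part of T or natural killer cells in the GTPase and chemokine values was not tested.

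**Figure D4:**
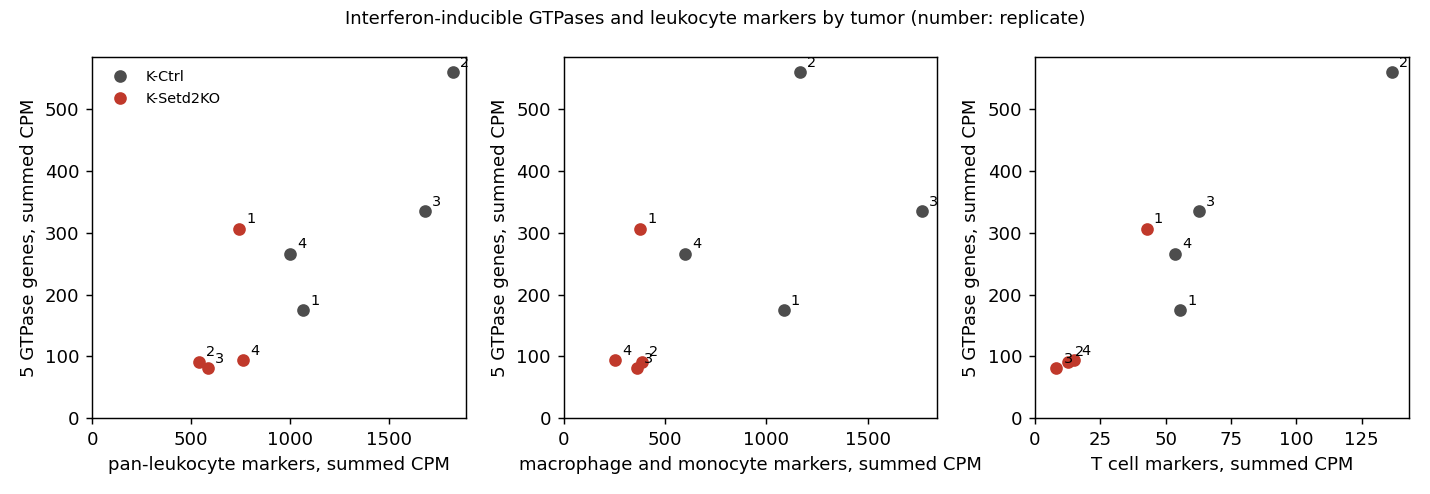
Summed CPM of the 5 GTPase genes (y axis) against summed CPM of 8 pan-leukocyte, 10 macrophage and monocyte and 8 T cell markers (x axes), with 1 point per tumor numbered by replicate. K-Setd2KO replicate 1, at 307 CPM of GTPases, lies among the K-Ctrl tumors on the y axis and with the K-Setd2KO tumors on the first 2 x axes.

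The other marker lists are given once. Dendritic cell markers fell in 4 of 7 tested (sum 43.7 to 101 CPM in K-Ctrl, 9.91 to 23.3 in K-Setd2KO), plasmacytoid dendritic cell markers, of cells that secrete much type I interferon, in 1 of 5 (141 to 190 and 68.2 to 140 CPM), B cell markers in 1 of 6 (32.4 to 79.8 and 17.9 to 28.5 CPM), endothelial markers in 2 of 8 (522 to 2048 and 208 to 535 CPM) and fibroblast markers in 1 of 6 (496 to 1119 and 141 to 582 CPM). No neutrophil marker of 6 was called (17.0 to 24.0 and 14.4 to 58.1 CPM). The plasmacytoid marker called was *Tcf4*, a transcription factor also made by many other cells, which held most of that sum at 105 to 156 CPM in K-Ctrl and 50.4 to 83.3 CPM in K-Setd2KO. *Siglech*, a receptor more particular to these cells, was at 1.90 to 5.78 and 0.460 to 2.56 CPM and was not called. The tumor epithelium markers were present in every tumor, with 2 of 8 higher (3669 to 5261 and 4191 to 6201 CPM), and of 7 alveolar type 2 markers 1 rose and 1 fell (39485 to 59061 and 47309 to 65964 CPM).

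Within each sex K-Setd2KO was lower for *Ifit2*, *Ifit3* and *Gbp7*, which had to follow because their groups did not overlap. The only female control was K-Ctrl replicate 2, and the only male K-Setd2KO tumor was replicate 3. Among males (3 K-Ctrl, 1 K-Setd2KO) and females (1 K-Ctrl, 3 K-Setd2KO), the difference in mean log2 CPM was -0.80 and -1.62 for *Ifit2*, -1.57 and -1.40 for *Ifit3* and -1.94 and -2.34 for *Gbp7*. For *Irf7* it was 0.93 and 0.21. The median over the 36 genes was -0.59 in males and -0.52 in females. With 1 tumor in an arm, these values have no test.

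Promoter letters are shown for the 3 genes that fell and for *Oas1a*, the member with the largest p. Windows of 250 bases before the RefSeq start (GRCm38.p6) were found for 31 of the 37 genes, 35 windows in all, since 4 genes had 2 starts. Capitals mark matches to an ISRE core, 2 GAAA tetramers with any 2 bases between them on either strand, or to a GAS core, TTCNNNGAA, which reads the same on both strands. Each sequence is given 5′ to 3′ on the strand of its gene and ends next to the start.
*Ifit2* (chr19:34550444-34550693, plus strand, first start): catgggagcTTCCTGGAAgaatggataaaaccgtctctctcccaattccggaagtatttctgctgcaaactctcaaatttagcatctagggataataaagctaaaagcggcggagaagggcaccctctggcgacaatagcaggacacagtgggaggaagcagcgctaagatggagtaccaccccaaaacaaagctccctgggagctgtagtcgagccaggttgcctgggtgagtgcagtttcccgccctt
*Ifit3* (chr19:34583279-34583528, plus strand): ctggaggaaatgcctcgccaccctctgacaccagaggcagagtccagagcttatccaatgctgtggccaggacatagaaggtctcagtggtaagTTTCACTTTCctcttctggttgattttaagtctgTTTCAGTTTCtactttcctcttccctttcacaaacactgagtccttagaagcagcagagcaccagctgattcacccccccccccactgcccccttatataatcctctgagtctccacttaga
*Gbp7* (chr3:142530086-142530335, plus strand): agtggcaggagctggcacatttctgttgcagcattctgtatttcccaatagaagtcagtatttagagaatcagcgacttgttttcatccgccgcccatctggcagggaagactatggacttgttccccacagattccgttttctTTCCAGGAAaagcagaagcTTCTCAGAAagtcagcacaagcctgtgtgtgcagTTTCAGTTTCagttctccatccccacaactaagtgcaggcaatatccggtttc
*Oas1a* (chr5:120907526-120907775, minus strand): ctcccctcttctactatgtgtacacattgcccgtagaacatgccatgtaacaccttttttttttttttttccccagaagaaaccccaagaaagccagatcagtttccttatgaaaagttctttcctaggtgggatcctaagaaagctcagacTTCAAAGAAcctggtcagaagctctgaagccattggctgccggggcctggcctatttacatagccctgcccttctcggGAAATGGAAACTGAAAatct

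*Ifit3* held 2 ISRE matches, at -156 to -147 and -122 to -113 from its start, and no GAS match. *Gbp7* held 1 ISRE match at -53 to -44 and 2 GAS matches at -106 to -98 and -87 to -79. *Oas1a*, with a log2 fold change of -0.0045, held 2 ISRE matches that overlap, at -20 to -11 and -14 to -5, and 1 GAS match. The first *Ifit2* window held 1 GAS match and no ISRE match, and neither motif was found before its second start. *Ifi44*, with the next largest p, had neither, and its window is not printed because its last bases lie in an annotated transcript.

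Of the 35 windows, 14 (40.0%) held the ISRE letters and 7 the GAS letters, against 2.98% and 7.02% of all 32851 windows in the table, and 4 (11.4%) held both, against 0.332%. The median log2 fold change was -0.64 over the 14 genes with an ISRE match, of which 2 were called, and -0.19 over the 16 tested genes without it, of which 1 was called. For the GAS letters the median was -0.74 over the 7 genes with a match, of which 2 were called. It was -0.31 over the 23 tested genes without a GAS match, of which 1 was called. Among all tested genes 7.74% were called lower. The set with an ISRE match included *Gbp2*, *Gbp3*, *Gbp7* and *Cxcl10* and also *Isg15*, *Oas1a* and *Oas3*, while *Cxcl9*, *Irf7* and *Samd9l* had no match. A match is a description of letters and not of binding, and the absence of one covers only these windows.

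Upstream of the response, the 21 interferon genes on the pathway list were hardly detected, and none passed the filter. Of these, 18 had 0 counts in all tumors, which allows up to 0.138 to 0.512 CPM from the largest to the smallest library, an allowance that covers counting error only. *Ifng*, the gene of interferon-gamma, had 25 counts in K-Ctrl replicate 2, 7 in K-Ctrl replicate 3, 8 in K-Setd2KO replicate 1 and 0 in the other 5 tumors. The tumors with the most GTPase RNA in each group were among the 3 with any *Ifng* count, and counts this low do not measure a level. The receptor genes *Ifnar1*, *Ifnar2*, *Ifngr1*, *Ifngr2* and *Ifnlr1* were expressed in every tumor with log2 fold changes of 0.01, -0.25, -0.59, -0.08 and 0.43, none called. *Ifngr1*, which binds interferon-gamma, measured 77.2 to 105 CPM in K-Ctrl and 37.9 to 78.4 CPM in K-Setd2KO (SE 0.219, edgeR adjusted p = 0.107). *Il10rb*, the chain shared by the receptors of type III interferons and interleukin-10, rose from 78.4, 81.4, 89.9 and 85.2 CPM to 116, 97.3, 106 and 121 CPM, a log2 fold change of 0.39 (SE 0.110, edgeR adjusted p = 0.0461), a call kept in 1 of the 8 fits that left out a tumor. *Jak1*, *Jak2*, *Tyk2* and *Stat3* had log2 fold changes of -0.35, -0.46, -0.17 and 0.36, none called.

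Over the whole list of 134 other interferon pathway genes, 106 were tested, 10 fell (9.43%) and 1 rose, and log2 fold changes had a median of -0.23. Among all tested genes 7.74% were called lower and 4.97% higher, so the share that fell was close to the background. *Tlr7* and *Tlr8*, endosomal RNA receptors, fell by 2.09 and 2.03 on the log2 scale, *Irf8* and *Irf5*, transcription factors of myeloid cells, fell by 1.64 and 1.19, and *Aim2*, a DNA sensor, fell by 1.67. *Samhd1*, an enzyme that breaks down free deoxynucleoside triphosphates, went from 262, 297, 274 and 210 CPM in K-Ctrl to 126, 105, 118 and 89.3 CPM in K-Setd2KO (log2 fold change -1.25, SE 0.154, edgeR adjusted p = 0.0056). The remaining calls were *Ifit3b*, *Gbp9*, *Slfn2* and *Serping1*, the last a complement inhibitor. *Irf8*, *Samhd1* and *Serping1* were called in all 17 alternative fits. When each tumor was left out in turn, *Irf5* was called in 1 of 8 fits, *Aim2* in 2, *Gbp9* in 3, *Tlr7* and *Tlr8* in 4 each and *Slfn2* in 6. *Tlr7*, *Tlr8* and *Irf8* are known chiefly from leukocytes, whose markers also fell, and the part of leukocytes in these values was not tested. K-Ctrl replicate 2 and K-Setd2KO replicate 1 were the highest of their groups in *Gbp9* as well, at 47.5, 88.5, 62.4 and 48.4 CPM in K-Ctrl and 39.5, 18.3, 15.2 and 14.0 CPM in K-Setd2KO. *Trex1*, a nuclease that clears cytosolic DNA, was listed at 0 in every tumor and overlaps *Atrip* on its strand.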

How the data were processed

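RNA was sequenced from 4 tumors of each group as paired-end reads, with a strand-marking mRNA kit. The authors deposited raw counts per gene without normalization. Per the labels, processing used STAR 2.5.2b, featureCounts 1.5.0-p1 and GRCm38.p4. Strand setting, treatment of reads shared between genes and annotation release are not given in the sources used here. Symbols came from GENCODE M21 (99.26% of identifiers matched). Counts were fitted in R 4.3.3 with edgeR 4.0.16 (filterByExpr, TMM, robust quasi-likelihood fit, genotype alone), and p-values were adjusted by Benjamini-Hochberg over 14929 genes. The study used DESeq2, run here (1.42.0) as an alternative beside limma voom (3.58.1). Standard errors are the absolute log2 fold change over the square root of F. A limit of 3 counts is 0.138 CPM in the deepest and 0.512 CPM in the shallowest library. No pair of same-group tumors agreed within sampling noise (lowest chi-square 30.5 per degree of freedom). The fitting step was tested on simulated counts.

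The gene set, the pathway and marker lists and the tests were chosen with earlier results of these data known. Full statistics are given for members called and for the most abundant member of each role, and pathway genes are named as interferons, receptors, JAK or STAT genes or, among the rest, if called. The joint group of GTPases and chemokines, tumor order, within-sex values, the chromosome 6 check and the motif search were chosen after values were seen. The result of 1 pathway gene that this rule would name is not reported here, although counts over the list include it. Alternatives were RLE and upper-quartile factors, no filter, at least 10 counts in every tumor, DESeq2, limma voom, a replicate block, a sex term and leaving out tumors.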

Additional observations from a re-analysis of the deposited data

Results flagged for a closer look

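In 116 groups of 4 tumors (both groups of 58 named genes, the untested *Oasl1* included), a tumor far from the other 3 was looked for by Dixon's ratio at its 95% critical value. The criterion was met 12 times, where chance alone gives about 5.8. In 7 of the 12 the tumor was K-Setd2KO replicate 1, high each time, with *Irf1* at 95.8 CPM, *Parp14* at 118 CPM, *Gbp2* at 72.8 CPM, *Gbp3* at 33.0 CPM, *Gbp7* at 57.9 CPM, *Cxcl9* at 20.5 CPM and *Gbp9* at 39.5 CPM. In K-Ctrl replicate 1, *Ifit2* was high at 24.6 CPM and *Irf9* low at 30.2 CPM. *Bst2* was high in K-Ctrl replicate 2 at 26.5 CPM, *Ifnar2* in K-Ctrl replicate 3 at 59.2 CPM and *Ifnlr1* in K-Ctrl replicate 4 at 21.6 CPM. Genes of the same response are not independent of each other.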

How the results depend on the processing

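Under 17 alternatives the count of members called was 2 to 6, none higher except *Irf7* without K-Setd2KO replicate 4. DESeq2 called 3211 genes (17.2%, with 10.6% lower), 6 members (16.2%, all lower, adding *Cxcl10*, *Gbp2* and *Gbp3*) and 19 pathway genes, and a sex term 1237 genes (5.25% lower) and 4 members (11.1%, all lower, *Cxcl10*, *Gbp2*, *Gbp7* and *Ifit2*). Leaving out both K-Ctrl replicate 2 and K-Setd2KO replicate 1, chosen after seeing the data, gave 528 genes and 4 members (11.1% lower, against 2.66% of all genes). Leaving out each tumor in turn gave 763 (without K-Ctrl replicate 3) to 2058 genes, 2 to 6 members (6 without K-Setd2KO replicate 1, or 16.7% lower against 6.03% of all genes), 4 to 14 pathway genes and member medians of -0.66 (without K-Setd2KO replicate 1) to -0.20. Pathway calls were 6 without K-Ctrl replicate 2 and 4 without K-Ctrl replicate 3 or K-Setd2KO replicate 3. Genes called were 938 without K-Ctrl replicate 1, 1126 without K-Ctrl replicate 2 and 1011 without K-Setd2KO replicate 3. No filter ended the call of *Gbp7* (adjusted p = 0.106). The cause of these changes was not tested.

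Same-numbered tumors did not deviate together (correlations -0.074, -0.03, 0.191 and -0.023), so they share only a number. A fit with the replicate number as a block called 1341 genes, 3 members and 13 pathway genes, with a member median of -0.42.

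Among the 57 named genes tested, signs turned for 12, whose log2 fold change was at most 0.31 in size. Over fits leaving out 1 tumor, log2 fold changes spanned -0.073 to 0.13 for *Irf9*, -0.52 to 0.48 for *Isg15*, -0.093 to 0.015 for *Trim25*, -0.61 to 0.23 for *Oas1a*, -0.68 to 0.21 for *Oas2*, -0.19 to 0.38 for *Oas3*, -0.50 to 0.13 for *Oasl2*, -0.021 to 0.20 for *Eif2ak2*, -0.88 to 0.11 for *Irgm1*, -0.27 to 0.23 for *Ifi44*, -0.059 to 0.080 for *Ifnar1* and -0.18 to 0.010 for *Ifngr2*. With a sex term they were -0.27 for *Isg15*, -0.56 for *Oas3*, -0.14 for *Eif2ak2*, -0.22 for *Ifi44* and -0.082 for *Ifnar1*. With the replicate block they were -0.026 for *Isg15* and -0.013 for *Ifi44*. With both tumors left out they were -0.053 for *Irf9*, -0.37 for *Isg15*, 0.094 for *Oas1a* and -0.11 for *Ifi44*. With no filter *Oas1a* was 0.0069, and with at least 10 counts in every tumor *Ifnar1* was -0.022. *Oasl1* rested on 2 to 16 counts a tumor, *Oas2* on 1 to 47 and *Isg15* on 12 to 91.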
